A study of Mus musculus with 6 samples.

Results

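The FGF signalling genes described here are 10 genes taken by their symbol from the deposited expression table, which lists 28584 gene symbols. They are the ligands Fgf4, Fgf8, Fgf15 and Fgf17, the receptors Fgfr1 and Fgfr2, the feedback inhibitors Spry2, Spry4 and Dusp6, and the ETS transcription factor Etv5. All 10 were present in the table, and all 10 were among the 18556 genes that had at least 1 TPM in at least 2 libraries and were tested. TPM is a read count corrected for gene length and brought to the same total in each library. Levels of different genes can therefore be set side by side, and a rise of abundant genes lowers the TPM of the rest.

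RNA was sequenced from mouse embryonic stem cells (mESCs) of the strain C57BL6/129S6 after culture in 3 media, with 2 libraries for each. All cells came from 1 line that had spent 5 passages on mitomycin C-inactivated mouse embryonic fibroblast (MEF) feeder cells, in medium with LIF, before the media were changed. The media shared a base with 20% serum. -LIF-ESCs received no cytokine, LIF-ESCs received 1000 U/mL leukemia inhibitory factor (LIF), and OSM-ESCs received 10 ng/mL oncostatin M (OSM) without LIF. The RNA was taken after another 10 passages in these media (P10). The study calls the libraries of a group biological replicates, but no source used here says that they came from separate cultures, so p-values measure only the spread between these libraries. Whether feeder cells were present at P10 is not given in the sources used here.

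FGF ligands bind receptor tyrosine kinases together with heparan sulfate, and the receptors signal through adaptors and RAS to the kinase ERK. ERK activity induces transcription factors of the Etv family and, with them, Sprouty proteins and the phosphatase Dusp6, which restrain the same cascade, so these genes are widely used as readouts of FGF-ERK signalling. In mESCs, Fgf4 made by the cells themselves is the ligand best known for driving ERK and readiness to differentiate, while LIF and OSM act through the shared receptor chain gp130 and the factor STAT3.

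The libraries held between 18773813 and 26031901 reads, as recovered from TPM and gene length. The RNA extraction text of the labels names ovary material, whereas all 12 embryonic stem cell markers were detected in every library, with a summed level of 2815 and 2821 TPM in -LIF-ESCs, 5161 and 5275 TPM in LIF-ESCs and 4779 and 4871 TPM in OSM-ESCs. The other marker lists also moved with the media. Fibroblast markers summed to 93.9 and 100.3 TPM in -LIF-ESCs, 541 to 547 TPM in LIF-ESCs and 751 to 756 TPM in OSM-ESCs. Primitive streak and mesoderm markers summed to 99.5 to 106 TPM in -LIF-ESCs and to at most 6.30 TPM in LIF-ESCs and OSM-ESCs. Trophoblast and surface ectoderm markers summed to 2385 to 2404 TPM against at most 77.2 TPM. Most of that sum in -LIF-ESCs came from the keratins Krt8, Krt18 and Krt19, with means of 982, 765 and 564 TPM. Every other marker of that list had a mean of 35.6 TPM or less there, with Cdx2 at 4.12 and Gata2 at 1.64 TPM. Of 7 primitive endoderm markers tested, 3 were called higher in LIF-ESCs and in OSM-ESCs, of 5 neural markers 2 were called higher in each and Nes was called lower in LIF-ESCs (in OSM-ESCs only after rescaling), and of 9 formative and primed epiblast markers 2 were called lower and 1 higher in both. Among these markers only the neural gene Hes5 was at 0 in both libraries of a group, in LIF-ESCs. A gene was called where limma's adjusted p was under 0.05 and the log2 fold change reached 1 or -1, on the log2(TPM + 1) scale. That scale understates the change of genes with a low TPM. With LIF, 13.3% of all 18556 genes tested met the rule for a call upward and 8.09% downward. With OSM the shares were 14.2% and 7.86%. These shares, taken before rescaling, stand beside the counts of called markers here and below. For small marker lists, 1 gene can be near the share over all genes.

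For 5 of the 10 genes, start-site windows from the RefSeq table (GRCm38.p6) were used here, with 2 windows for Etv5. Spry4 was also called higher in LIF-ESCs, but no window of it was used, so it was not searched for motifs. The 250 bases upstream of the start are printed for Dusp6, Spry2, Fgf4 and Fgfr2, because these genes were called higher in LIF-ESCs and can be compared for short motifs. Capitals mark a match to the octamer of the repressor Capicua, which ERK signalling relieves from its target genes. The windows were chr10:99262981-99263230 on the plus strand for Dusp6, chr14:105896820-105897069 on the minus strand for Spry2, chr7:144861136-144861385 on the plus strand for Fgf4 and chr7:130266809-130267058 on the minus strand for Fgfr2. Each is written 5′ to 3′ along its gene and ends at the base before the RefSeq start. The gene positions given below are those of the GENCODE annotation. For Fgf4 and Fgfr2 these span more sequence, and the RefSeq start lies inside them.
Dusp6: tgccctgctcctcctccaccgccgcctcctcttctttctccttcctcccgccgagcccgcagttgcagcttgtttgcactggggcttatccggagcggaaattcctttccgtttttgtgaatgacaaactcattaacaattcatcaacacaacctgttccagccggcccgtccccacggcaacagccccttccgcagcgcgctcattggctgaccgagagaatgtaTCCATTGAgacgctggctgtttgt
Spry2: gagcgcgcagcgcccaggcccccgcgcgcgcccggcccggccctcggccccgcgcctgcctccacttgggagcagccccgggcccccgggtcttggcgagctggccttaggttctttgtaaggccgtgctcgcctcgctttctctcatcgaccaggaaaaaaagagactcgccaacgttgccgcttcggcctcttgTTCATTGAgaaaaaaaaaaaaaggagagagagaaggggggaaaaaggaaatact
Fgf4: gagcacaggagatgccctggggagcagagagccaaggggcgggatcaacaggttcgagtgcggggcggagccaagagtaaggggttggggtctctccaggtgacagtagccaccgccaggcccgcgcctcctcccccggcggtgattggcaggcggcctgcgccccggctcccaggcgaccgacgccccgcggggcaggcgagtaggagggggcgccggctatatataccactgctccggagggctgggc
Fgfr2: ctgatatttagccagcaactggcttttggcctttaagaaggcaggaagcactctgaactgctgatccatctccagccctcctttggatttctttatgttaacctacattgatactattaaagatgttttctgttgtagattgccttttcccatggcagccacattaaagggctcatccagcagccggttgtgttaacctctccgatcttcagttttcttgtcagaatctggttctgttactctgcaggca

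The Capicua octamer was searched as TGAATGAA, TGAATGGA, TCAATGAA and TCAATGGA on both strands. Dusp6 held TCAATGGA on the strand opposite to the gene, 24 bases before the start, and Spry2 held TCAATGAA on the opposite strand, 54 bases before the start. The windows of Fgf4, Fgfr2 and Etv5 held none of these letters. Over all 32851 windows of the table, 3.19% held one of the octamers. The STAT pattern TTCNNNGAA was in 7.02% of all windows and the ETS site CCGGAAGT in 2.88%, and the 6 windows of these genes held neither. The motifs were picked with these genes in view, so the matches describe the sequence only.

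Among the ligands, Fgf4 was higher, Fgf17 was lower and Fgf8 was close to its limit of detection when either cytokine was present. Fgf4, the ligand made by naïve mESCs, lies on chromosome 7 (144847367 to 144865243, GRCm38, as all positions here). Its level was 64.4 and 63.3 TPM in -LIF-ESCs, 139.8 and 136.7 TPM in LIF-ESCs and 116 and 111 TPM in OSM-ESCs. The 3 groups did not overlap, with LIF-ESCs highest and -LIF-ESCs lowest. Fgf4 was higher in LIF-ESCs by 1.10 ± 0.04 on the log2 scale (SE, adjusted p = 1.64e-05, limma) and in OSM-ESCs by 0.82 ± 0.04 (adjusted p = 3.68e-05). The log2 fold change in OSM-ESCs was under the limit of 1, so Fgf4 was called only in LIF-ESCs against -LIF-ESCs, and after rescaling of the libraries it was under that limit there too, at 0.93.

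Fgf8, a ligand of the primitive streak and gastrulating embryo, lies on chromosome 19 (45736798 to 45742915). It measured 75.0 and 76.3 TPM in -LIF-ESCs, from 1147 and 958 reads. In LIF-ESCs it measured 0.395 and 0.493 TPM, from 5 and 6 reads, and in OSM-ESCs 0.807 and 0.733 TPM, from 11 and 12 reads. The cytokine groups were near the limit of detection, whereas in -LIF-ESCs Fgf8 was the most abundant FGF ligand. The mean TPM was 170.5-fold lower in LIF-ESCs and 98.3-fold lower in OSM-ESCs, with log2 fold changes of -5.73 ± 0.08 and -5.44 ± 0.08 (adjusted p = 2.05e-06 and 2.12e-06, limma). These are bulk libraries, in which fewer cells of a type and less RNA per cell cannot be told apart. Of 9 primitive streak and mesoderm markers, 8 were called lower in each comparison. Brachyury (T), the defining gene of the streak, measured 61.9 and 59.4 TPM in -LIF-ESCs and at most 1.05 TPM in the other 4 libraries. Of 9 trophoblast and surface ectoderm markers, 7 were called lower with LIF and 6 with OSM. The part of these markers' cells in the difference of Fgf8 was not tested.

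Fgf17, a close relative of Fgf8, lies on chromosome 14 (70636203 to 70642268). It measured 46.8 TPM in both libraries of -LIF-ESCs, 18.2 and 16.1 TPM in LIF-ESCs and 24.4 and 23.8 TPM in OSM-ESCs. The groups did not overlap, and OSM-ESCs lay between the others. Fgf17 was lower in LIF-ESCs by a log2 fold change of -1.40 ± 0.07 (adjusted p = 3.71e-05, limma) and in OSM-ESCs by -0.93 ± 0.07 (adjusted p = 0.000136). After rescaling and by voom it was also called in OSM-ESCs, at -1.11 and -1.08. Unlike Fgf8, it stayed at 16.1 TPM or more in every library.

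Fgf15, the mouse counterpart of human FGF19, lies near Fgf4 on chromosome 7 (144896531 to 144900953). It measured 3.99 and 3.97 TPM in -LIF-ESCs, 1.81 and 3.12 TPM in LIF-ESCs and 3.04 and 2.75 TPM in OSM-ESCs. Both -LIF-ESC libraries were above the other 4, while the LIF-ESC libraries differed from each other and overlapped with OSM-ESCs. Fgf15 was lower in LIF-ESCs by a log2 fold change of -0.55 ± 0.19 (adjusted p = 0.0493, limma). The value depended on the LIF-ESC library left out. Without LIF replicate 1 it was -0.27 (adjusted p = 0.12), without LIF replicate 2 it was -0.82 (adjusted p = 0.00681), and by voom it was -0.87 (adjusted p = 0.00116). In OSM-ESCs the value was -0.35 ± 0.19 (adjusted p = 0.156), although limma's voom on 94 and 102 recovered reads gave -0.58 (adjusted p = 0.0105). Its exons overlap those of Gm26793 on the other strand by 761 bases, and the strand setting of the counting is not given in the sources used here.

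**Figure D1:**
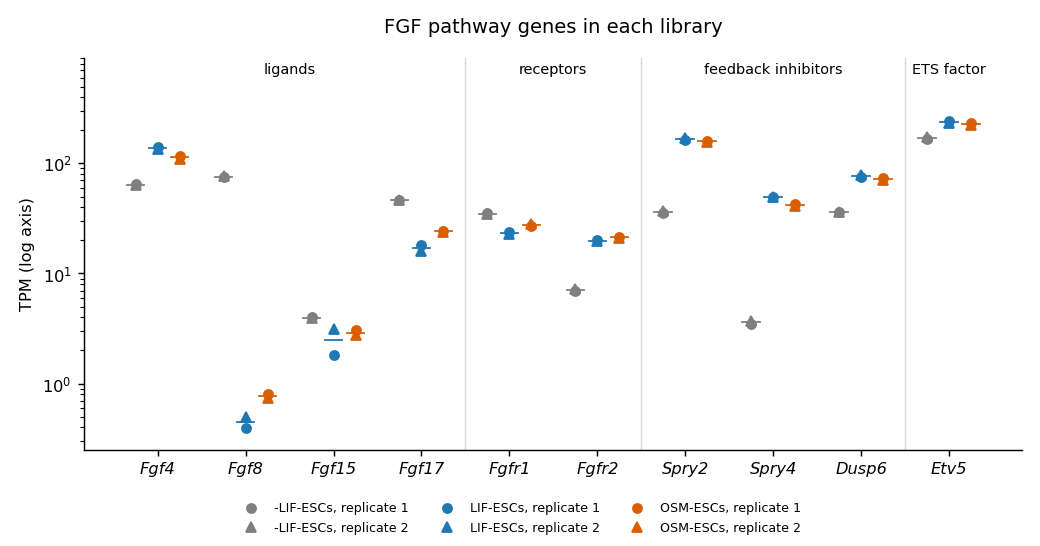
TPM on a log axis for the 10 FGF signalling genes, with a symbol for each library and a short line at the mean of the 2 libraries of a group. Fgf8 falls from 75.0 and 76.3 TPM in -LIF-ESCs to below 1 TPM in the other libraries, Spry2 and Spry4 sit far higher in LIF-ESCs and OSM-ESCs, and the groups overlap for Fgf15 between LIF-ESCs and OSM-ESCs.

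The total of the FGF ligands changed less than its makeup. Summed over the 17 FGF ligands in the table, the level was 219.6 and 219.5 TPM in -LIF-ESCs, 192 and 189 TPM in LIF-ESCs and 187 and 177 TPM in OSM-ESCs. In -LIF-ESCs Fgf8 gave 34.2% and 34.7% of it, Fgf4 28.8% to 29.3% and Fgf17 21.3%. In LIF-ESCs Fgf4 gave 72.2% to 72.7%, Fgf17 8.53% to 9.48% and Fgf8 at most 0.26%. In OSM-ESCs Fgf4 gave 62.0% to 62.6%, Fgf17 13.1% to 13.5% and Fgf8 at most 0.431%. Fgf4 was thus the most abundant ligand with either cytokine and Fgf8 without one. These shares are descriptive and carry no test.

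The receptors moved in opposite directions. Fgfr1, the receptor best known for relaying Fgf4 in pluripotent cells, lies on chromosome 8 (25513654 to 25575718). It measured 35.5 and 34.4 TPM in -LIF-ESCs, 23.6 and 23.1 TPM in LIF-ESCs and 26.9 and 28.3 TPM in OSM-ESCs. The groups did not overlap. Fgfr1 was lower in LIF-ESCs by a log2 fold change of -0.56 ± 0.05 (adjusted p = 0.000271, limma) and in OSM-ESCs by -0.33 ± 0.05 (adjusted p = 0.00204), both under the limit of 1. Its exons overlap those of Gm16159 on the other strand by 164 bases.

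Fgfr2, the receptor that trophoblast and primitive endoderm are known to use, lies on chromosome 7 (130162451 to 133123350). It measured 6.88 and 7.18 TPM in -LIF-ESCs, 20.1 and 19.8 TPM in LIF-ESCs and 21.6 and 20.9 TPM in OSM-ESCs. All 4 libraries with a cytokine were above both -LIF-ESC libraries. Fgfr2 was called higher in both comparisons, by 1.38 ± 0.05 in LIF-ESCs and 1.47 ± 0.05 in OSM-ESCs on the log2 scale (adjusted p = 2.19e-05 and 1.77e-05, limma), a rise of 2.83-fold and 3.02-fold in mean TPM. Its annotation shares 314 exon bases with Ctbp2 on the same strand, so reads there could count for either gene. Ctbp2 was itself higher with either cytokine, its course being among the 3 closest to that of Spry2, as given below. The part of Ctbp2 reads in the rise of Fgfr2 was not tested. Fibroblast markers rose in the same libraries, with 13 of 15 called higher in each comparison, and their part in the rise of Fgfr2 was not tested.

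The summed level of the 4 signalling receptors Fgfr1 to Fgfr4 was 43.8 and 43.1 TPM in -LIF-ESCs, 45.6 and 45.4 TPM in LIF-ESCs and 50.5 and 50.8 TPM in OSM-ESCs. Fgfr1 gave 79.7% to 81.0% of it without a cytokine, 50.9% to 51.7% in LIF-ESCs and 53.2% to 55.8% in OSM-ESCs. The share of Fgfr2 was 15.7% to 16.6%, 43.6% to 44.0% and 41.1% to 42.8% in the same order. Fgfr3 stayed at or below 0.525 TPM and was not tested, and Fgfr4 lay between 1.03 and 2.03 TPM. The receptor pool without a cytokine was therefore mostly Fgfr1, and with LIF or OSM it was split between Fgfr1 and Fgfr2.

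**Figure D2:**
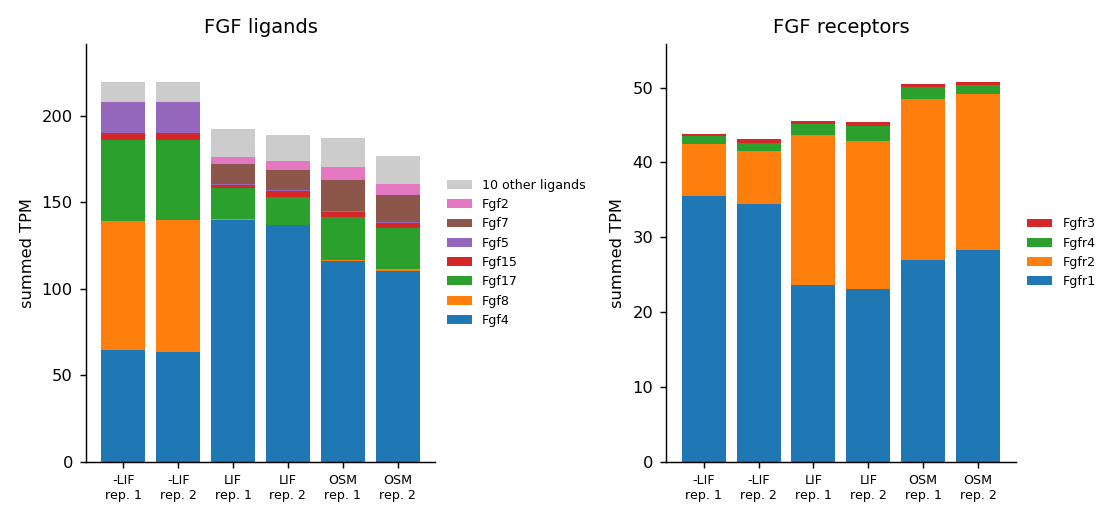
Stacked bars of TPM for the FGF ligands (left) and FGF receptors (right) in each of the 6 libraries, with each colour a gene. Fgf8 and Fgf5 make up a visible share only in the -LIF-ESC bars, Fgf7 and Fgf2 only in the LIF-ESC and OSM-ESC bars, and the Fgfr2 share is larger in the last 4 bars.

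Among the 10 genes, the feedback inhibitors Spry2, Spry4 and Dusp6 were all higher with either cytokine. Spry4, a Sprouty protein that blocks signalling between the receptor and RAS-ERK, lies on chromosome 18 (38586247 to 38601415) and rose most among the 10 genes. It measured 3.50 and 3.68 TPM in -LIF-ESCs, 49.1 and 49.3 TPM in LIF-ESCs and 42.4 and 41.3 TPM in OSM-ESCs. The groups did not overlap, and the replicates of each group were close to each other. The mean TPM was 13.7-fold higher in LIF-ESCs and 11.7-fold higher in OSM-ESCs, with log2 fold changes of 3.45 ± 0.05 and 3.22 ± 0.05 (adjusted p = 1.91e-06 and 2.12e-06, limma). Its reads could not be recovered from the annotation used here, so no voom value was computed for it. Of 12 embryonic stem cell markers, 6 were called higher in LIF-ESCs and 7 in OSM-ESCs, or 5 in each after rescaling. Nanog was lower, at 436 and 431 TPM in -LIF-ESCs, 289 and 291 TPM in LIF-ESCs and 270.4 and 252 TPM in OSM-ESCs. The study reports the opposite direction for Nanog, with more RNA under either cytokine and less protein in -LIF-ESCs. The part of these markers' cells in the rise of the feedback inhibitors was not tested.

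Spry2, the Sprouty gene of highest level here, lies on chromosome 14 (105891947 to 105896819). It measured 35.8 and 36.6 TPM in -LIF-ESCs, 163 and 169 TPM in LIF-ESCs and 161 and 156 TPM in OSM-ESCs. Every library with a cytokine was far above both -LIF-ESC libraries, and LIF-ESCs were slightly above OSM-ESCs. Spry2 was called higher in LIF-ESCs by 2.16 ± 0.04 and in OSM-ESCs by 2.10 ± 0.04 on the log2 scale (adjusted p = 3.1e-06 and 2.92e-06, limma), which is 4.58-fold and 4.38-fold in mean TPM. Its relative Spry1 measured 21.7 and 20.5 TPM in -LIF-ESCs, 22.1 and 22.5 TPM in LIF-ESCs and 20.7 TPM in both OSM-ESC libraries. Spry1 was named after its values were seen, to set it beside the other Sprouty genes.

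Dusp6, the phosphatase that inactivates ERK, lies on chromosome 10 (99263231 to 99267489). It measured 36.0 and 36.3 TPM in -LIF-ESCs, 75.7 and 77.8 TPM in LIF-ESCs and 74.5 and 70.2 TPM in OSM-ESCs. The libraries with a cytokine lay at about double the level of -LIF-ESCs. Dusp6 was higher by 1.06 ± 0.04 in LIF-ESCs and by 0.98 ± 0.04 in OSM-ESCs on the log2 scale (adjusted p = 2.48e-05 and 3.03e-05, limma). The limit of 1 for a call fell between these values, and after rescaling both were under it, at 0.89 and 0.80.

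Etv5, an ETS factor induced by ERK that is also needed for exit from the naïve state, lies on chromosome 16 (22381309 to 22439719) and was the most abundant of the 10 genes in all 3 groups. It measured 166 and 174 TPM in -LIF-ESCs, 244 and 235 TPM in LIF-ESCs and 234 and 221 TPM in OSM-ESCs. All 4 libraries with a cytokine were above both -LIF-ESC libraries. Etv5 was higher by 0.49 ± 0.05 in LIF-ESCs and by 0.42 ± 0.05 in OSM-ESCs on the log2 scale (adjusted p = 0.000398 and 0.000708, limma), both under the limit of 1 for a call.

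The order of the genes by mean TPM differed between the media. In -LIF-ESCs Etv5 was followed by Fgf8, Fgf4 and Fgf17, then by Dusp6 and Spry2, both at 36.2 TPM with overlapping libraries, and by Fgfr1 at 35.0 TPM, and last came Fgfr2, Fgf15 and Spry4 at 7.03, 3.98 and 3.59 TPM. In LIF-ESCs Etv5 was followed by Spry2, Fgf4, Dusp6 and Spry4, then by Fgfr1, Fgfr2 and Fgf17 at 23.3, 19.9 and 17.2 TPM, and Fgf15 and Fgf8 were lowest at 2.47 and 0.444 TPM. OSM-ESCs had nearly the same order, but Fgf17 at 24.1 TPM stood above Fgfr2 at 21.2 TPM. Apart from Dusp6 and Spry2 in -LIF-ESCs, the libraries of these neighbours did not overlap. Spry4 was the lowest of the genes without a cytokine and stood above both receptors with one.

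Counted together, 5 of the 10 genes (Fgf4, Fgfr2, Spry2, Spry4 and Dusp6) were called higher and 2 (Fgf8 and Fgf17) lower in LIF-ESCs against -LIF-ESCs. Over all genes tested, 13.3% were called higher and 8.09% lower. For OSM-ESCs against -LIF-ESCs, 3 (Fgfr2, Spry2 and Spry4) were called higher and 1 (Fgf8) lower, beside 14.2% and 7.86% of all genes. By the adjusted p alone, 6 genes were higher and 4 lower in LIF-ESCs, where 42.2% and 25.9% of all genes were, and 6 were higher and 3 lower in OSM-ESCs, where 42.9% and 25.4% were. The shares by the adjusted p alone were therefore high for genes of any kind. The median log2 fold change of the 10 genes was 0.78 with LIF and 0.62 with OSM, beside 0.165 and 0.182 over all genes. After the libraries were rescaled so that the median of all genes was 0.017 and 0.02, 3 genes were called higher and 2 lower in each comparison. The comparisons share the -LIF-ESC libraries, so their likeness is not independent. With 2 libraries against 2, the smallest two-sided p of an exact permutation test is 0.333, and the p-values given here come from the limma model.

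**Figure D3:**
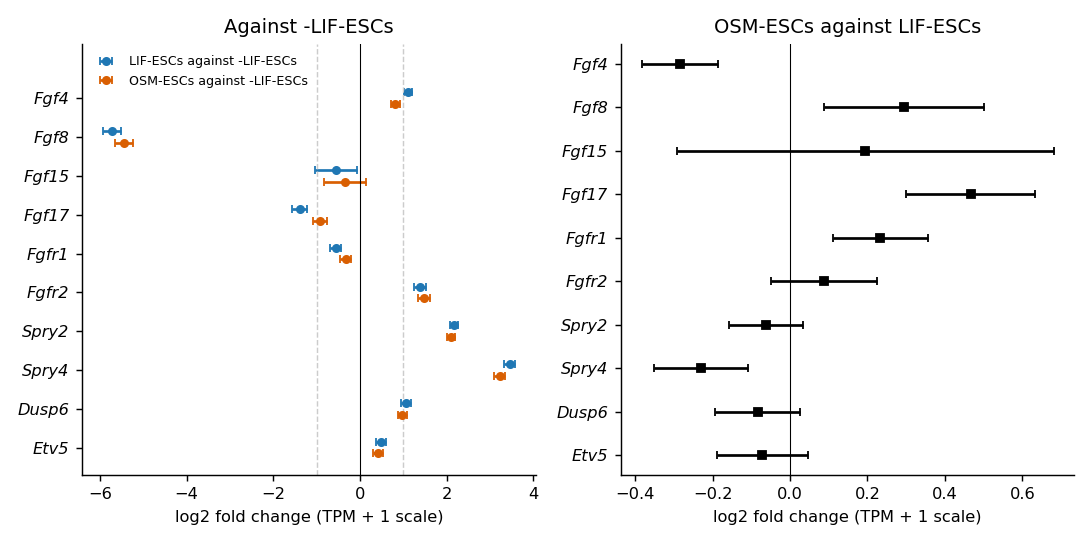
Log2 fold changes of the 10 genes on the log2(TPM + 1) scale with 95% confidence intervals from limma, against -LIF-ESCs (left, dashed lines at the limit of 1 for a call) and for OSM-ESCs against LIF-ESCs (right, on a finer axis). In the left panel Fgf8 is at -5.73 and -5.44 and Spry4 at 3.45 and 3.22, and in the right panel every value is between -0.28 and 0.47.

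Between the cytokines, limma called none of the 10 genes, while OSM-ESCs had 0.0323% of all genes called higher and 0.0485% called lower. None passed the adjusted p alone in limma either, which 0.463% of all genes passed as higher and 0.129% as lower. At an unadjusted p under 0.05, 3 of the 10 genes (Fgf8, Fgf17 and Fgfr1) were higher in OSM-ESCs and 2 (Fgf4 and Spry4) lower, beside 9.8% and 5.5% of all genes. By limma's voom on recovered reads, Fgf4, Fgf17 and Fgfr1 passed the adjusted p (8.32e-06, 0.00265 and 0.00127), with log2 fold changes of -0.29, 0.49 and 0.25.

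Fgf17 had the largest of these differences, 0.47 on the log2 scale (95% confidence interval 0.30 to 0.63, adjusted p = 0.0634, limma). Fgf4 was at -0.28 (-0.38 to -0.19, adjusted p = 0.0622) and passed after rescaling (adjusted p = 0.0414). Spry4 was at -0.23 (-0.35 to -0.11, adjusted p = 0.13) and Fgfr1 at 0.23 (0.11 to 0.36, adjusted p = 0.128). For Fgf8 the value was 0.29 (0.09 to 0.50, adjusted p = 0.202) on the log2(TPM + 1) scale. Without the added 1, its mean TPM was 1.73-fold higher in OSM-ESCs. With 5 to 12 reads a library, the counting error of that fold was 0.53 on the log2 scale. These genes lay on the -LIF-ESC side of LIF-ESCs in OSM-ESCs, a description of their means with no test.

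Fgfr2, Spry2, Dusp6 and Etv5 differed little between the cytokines. The difference was 0.09 (-0.05 to 0.22) for Fgfr2, -0.06 (-0.16 to 0.03) for Spry2, -0.08 (-0.19 to 0.03) for Dusp6 and -0.07 (-0.19 to 0.05) for Etv5, each with a 95% interval on the log2 scale. Fgf15 was at 0.19 with a wide interval from -0.29 to 0.68. The interval of Fgf15 was thus the widest of the 10 genes, and its groups overlapped.

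Other genes of the pathway were examined through 5 lists with 91 genes in all, of which 89 were in the table and 81 were tested. Against -LIF-ESCs, LIF raised 18 of these and lowered 5 past both limits of a call, and OSM raised 19 and lowered 4. The shares over all genes were 13.3% and 8.09% with LIF and 14.2% and 7.86% with OSM, and these also stand beside the counts of the 5 lists. The median log2 fold change of the 81 genes was 0.28 and 0.34, beside 0.165 and 0.182 over all genes. After rescaling it was 0.11 and 0.18, beside 0.017 and 0.02. Then 18 and 6, and 19 and 6, were called higher and lower. The medians of the 5 lists are given before rescaling, which lowered each of them. The genes named from each list are at most 4 per comparison, those called with the largest change.

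Of 9 other ligands tested, 4 were called higher and 1 lower in both comparisons, with a median of 0.06 in LIF-ESCs and 0.39 in OSM-ESCs. Fgf5, the marker ligand of the postimplantation epiblast, fell with Fgf8, from 17.7 TPM in both -LIF-ESC libraries to 0.511 and 0.665 TPM in LIF-ESCs and 0.91 and 0.857 TPM in OSM-ESCs, with log2 fold changes of -3.56 and -3.31. Fgf7, a ligand made by mesenchymal cells, had 0 reads in both -LIF-ESC libraries and measured 11.3 and 11.5 TPM in LIF-ESCs and 17.9 and 15.4 TPM in OSM-ESCs. Against the 3 reads per library taken as the floor, Fgf7 was at least 126-fold higher with LIF, and with OSM at least 184-fold. Fgf2 rose by 2.18 and 2.63 and Fgf10 by 1.72 and 1.64 on the log2 scale, each from 0.691 TPM or less in -LIF-ESCs. Fibroblast markers rose beside these ligands. Lox was at 0.0735 and 0.0894 TPM in -LIF-ESCs, 112 TPM in both LIF-ESC libraries and 155 and 149 TPM in OSM-ESCs, and the collagen genes Col1a1, Col1a2 and Col3a1 rose too, whereas Col5a1 was lower. The part of fibroblasts in the rise of Fgf7, Fgf2 and Fgf10 was not tested.

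Of 15 other receptors, co-receptors and heparan sulfate proteoglycans, LIF-ESCs had 2 called higher and 3 called lower, and OSM-ESCs had 3 and 2, with medians of -0.45 and -0.36. Flrt2, a membrane protein that binds FGF receptors, rose from 0.263 and 0.209 TPM in -LIF-ESCs to 13.8 and 12.7 TPM in LIF-ESCs and 19.8 and 17.3 TPM in OSM-ESCs. The proteoglycan Sdc3 rose by 1.92 and 2.28 on the log2 scale. The glypican Gpc3 fell from 108 and 102 TPM to 31.7 and 34.0 TPM in LIF-ESCs and 28.5 and 30.7 TPM in OSM-ESCs, and the FGF-binding protein Fgfbp1 changed by -1.90 and -1.40. All of these passed the adjusted p in limma in both comparisons.

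Of 12 heparan sulfate enzymes, limma called 4 higher and 0 lower in both comparisons, with medians of 0.71 in LIF-ESCs and 0.87 in OSM-ESCs. By limma's adjusted p alone, 9 were higher and 2 lower in each. Over all genes, 42.2% and 25.9% were with LIF, and 42.9% and 25.4% with OSM. The 2 lower genes were Hs6st1 (-0.89 and -0.94 on the log2 scale) and Sulf1 (-0.63 and -0.30), named after their values were seen. After rescaling 1 was called lower. The genes called higher were the sulfotransferases Hs3st1 (1.41 and 1.38 on the log2 scale) and Hs6st2 (1.23 and 1.42), the epimerase Glce (1.40 and 1.24) and the sulfatase Sulf2 (1.40 and 1.34). Sulf2, which removes sulfate groups from the chains that FGF binds, was the most abundant of these 4, at 48.0 and 46.2 TPM in -LIF-ESCs, 132 and 121 TPM in LIF-ESCs and 120 and 121 TPM in OSM-ESCs.

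Of 26 adaptors and genes of the RAS-ERK cascade, 2 were called higher and 0 lower in each comparison, with medians of 0.27 and 0.33, and after rescaling 1 was called lower in OSM-ESCs. By the adjusted p alone in limma, 13 were higher and 7 lower with LIF, where 42.2% and 25.9% of all genes were. With OSM 14 were higher and 8 lower, where 42.9% and 25.4% of all genes were. At an unadjusted p under 0.05 in limma, 8 were lower with each cytokine, beside 5036 and 4950 of all 18556 genes. The ERK-activated kinase Rps6ka2 rose by 1.61 and 1.51, and Cbl, the ubiquitin ligase that marks activated receptors for degradation, by 1.16 and 1.35 on the log2 scale.

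Of 19 other ERK feedback inhibitors and targets, 6 were called higher and 1 lower in both comparisons, with a median of 0.36 in each. The gene called lower was the phosphatase gene Dusp9, named after its values were seen. It measured 132 and 128 TPM in -LIF-ESCs, 63.8 and 60.9 TPM in LIF-ESCs and 57.7 and 58.0 TPM in OSM-ESCs. Epha2, an ephrin receptor induced by ERK, rose from 33.0 and 32.3 TPM in -LIF-ESCs to 304 and 302 TPM in LIF-ESCs and 294 TPM in both OSM-ESC libraries. Etv4, the nearest relative of Etv5, rose from 13.9 and 13.3 TPM to 74.8 and 75.2 TPM and to 70.7 and 69.6 TPM, a log2 fold change of 2.38 and 2.28 where Etv5 had 0.49 and 0.42. The AP-1 factor Fosl1 rose by 2.97 and 3.51 and the RAS inhibitor Spred3 by 2.08 and 2.29. By the adjusted p alone 12 of the 19 were higher and 4 lower with LIF, beside 42.2% and 25.9% of all genes. With OSM 11 were higher and 5 lower, beside 42.9% and 25.4%. The immediate early gene Fos, chosen after its values were seen, measured 104 and 105 TPM in -LIF-ESCs, 126 and 129 TPM in LIF-ESCs and 80.0 and 81.5 TPM in OSM-ESCs.

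**Figure D4:**
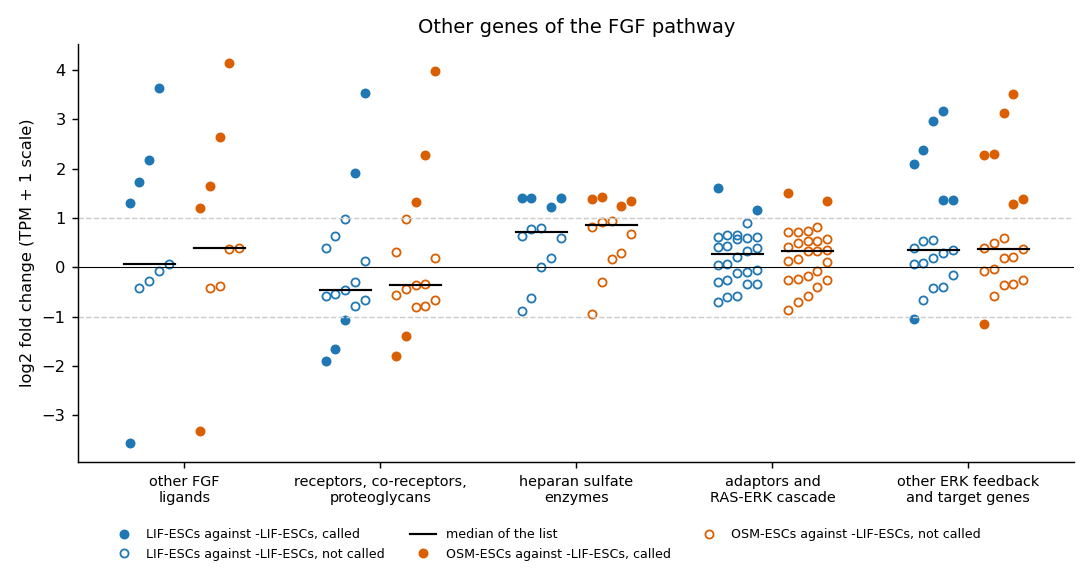
Log2 fold changes of the 81 other FGF pathway genes tested, in 5 lists, for LIF-ESCs and OSM-ESCs against -LIF-ESCs on the log2(TPM + 1) scale. Each point is a gene, filled where it was called, the dashed lines mark the limit of 1 and each black bar is the median of its list, from -0.45 for receptors and proteoglycans to 0.87 for heparan sulfate enzymes.

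For the first gene of each role, the 3 genes with the most similar course over the 6 libraries were found by the root mean square difference of their centred log2(TPM + 1) values. For Fgf4 these were Myrf, Csad and En2, at 0.034, 0.045 and 0.046, where Fgf4 itself spanned 1.13. For Fgfr1 they were Bcl9l, Npnt and Arl8a, at 0.016, 0.026 and 0.030 with a span of 0.60. For Spry2 they were Ina, Zfp57 and Ctbp2, at 0.019, 0.039 and 0.043 with a span of 2.21. For Etv5 they were Nsf, Dctn4 and Cdk5rap2, at 0.010, 0.012 and 0.019 with a span of 0.55. All rest on the same 6 libraries in 3 groups.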

How the data were processed

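The data were 6 RNA-seq libraries of mESCs at P10, with 2 libraries for each of 3 media. The authors mapped reads to mm10 with Hisat2, assigned them to genes by featureCounts, and deposited the result as TPM. Trimmomatic is also named in the submitters' processing notes. The annotation, the strand setting and the step from counts to TPM are not given in the sources used here. No batch is named in the labels.

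Values of log2(TPM + 1) were fitted in limma (version 3.58.1, R 4.3.3; lmFit, eBayes with a trend) for the 18556 genes that reached 1 TPM in 2 or more libraries. The spread was estimated jointly for the 3 groups (3 residual degrees of freedom, 5.3 with the prior, median residual SD 0.086). Benjamini-Hochberg adjustment covered all genes tested, and intervals are at 95%. The thresholds for a call are those of the study's methods.

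Exon lengths were those of GENCODE M21 (GRCm38), which held 28405 of the symbols once (99.4%). Dividing by 1 step per library recovered the reads, and 94.6% of the values above 0 were whole within 0.02 of a read. These reads give depth, counting error (counting only) and the input of voom. The limma fit was run on simulated TPM with known fold changes, and the recovery of reads was not tested in this way. Promoter windows are from RefSeq (GRCm38.p6). Tables were made with Python 3.11.15 and pandas 2.3.3.

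The genes, the lists and the tests were chosen with earlier results of these data known, so no list is independent evidence. Besides the 10 genes, the text names up to 4 called genes of largest change per list and comparison, the most abundant ligands and receptors, marker genes, the 3 most similar genes for the first gene of each role and a few genes said to be chosen after their values were seen. Alternatives tried were a pseudocount of 0.1, a filter of 5 TPM or none, eBayes without a trend, a fit of the compared groups alone, the replicate number as a block, median ratio rescaling, other rules for a call, each library left out and limma's voom on recovered reads. Fgf6 and Spry3 were not analysed here, and Fgf1, Fgf9, Fgf16, Fgf23, Fgfr3, Kl, Klb and Flrt1 were below the filter.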

Additional observations from a re-analysis of the deposited data

Results flagged for a closer look

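Fos, a transcription factor gene induced within minutes of ERK activation, passed the adjusted p between the cytokines among the other pathway genes. The response to OSM minus that to LIF was -0.65 on the log2 scale (adjusted p = 0.0239, limma, the direct test of OSM-ESCs against LIF-ESCs). Against -LIF-ESCs the log2 fold change was 0.28 with LIF and -0.37 with OSM. Both LIF-ESC libraries were above and both OSM-ESC libraries below the -LIF-ESC libraries, with 2775 and 2738 recovered reads under LIF and 1902 and 2325 under OSM. The log2 fold change of -0.65 was under the limit of 1 for a call. Of the 81 other pathway genes tested, Fos alone passed the adjusted p in limma as reported and 0 were called. After rescaling, the glypican Gpc4, named after its values were seen, passed too (log2 fold change 0.32, adjusted p = 0.0466, against 0.34 and 0.0604 as reported). An unadjusted p under 0.05 was reached by 16 that were higher and 3 that were lower with OSM, where 9.8% and 5.5% of all genes reached it.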

How the results depend on the processing

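Of 138 values each that were recomputed under the alternatives for the 10 genes, 128 kept their direction and their side of an adjusted p of 0.05 with LIF, 134 with OSM and 131 between the cytokines. The 10 others in LIF-ESCs were all Fgf15, whose adjusted p of 0.0493 rose to between 0.0559 and 0.149. Fgf15 in OSM-ESCs passed under 4 alternatives. For OSM-ESCs against LIF-ESCs, Fgf4 and Fgf17 passed with a filter of 5 TPM (adjusted p = 0.0466 and 0.0459), where fewer genes were tested, besides the values given for rescaling and voom. The log2 fold change of Fgf15 reversed to -0.08 without LIF replicate 1 and ranged from -0.08 to 0.47 with each library left out. With voom 4 in place of 7 of the 10 genes were called in LIF-ESCs, since Spry4 was not tested and Fgf4 and Dusp6 fell below the limit at 0.99 and 0.96. By the adjusted p alone, 9 in place of 4 were counted in OSM-ESCs, and of the other pathway genes 64 in place of 23 in LIF-ESCs, 67 in place of 23 in OSM-ESCs and 1 in place of 0 between the cytokines. Leaving out OSM replicate 2 gave 5 called genes in OSM-ESCs, with Dusp6 added.

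Same-numbered libraries did not deviate together (correlations of -0.0433, -0.0234 and 0.0265), so the numbers were taken as names only. A replicate block left the counts at 7, 4 and 0 of the 10 genes and 23, 23 and 0 of the other pathway genes, and Fgf15 in LIF-ESCs at an adjusted p of 0.0645. Depth limits Fgf8 with LIF or OSM, at 5 to 12 reads a library.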
